A study of Homo sapiens with 16 samples.

Results

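EIF4A1 and EIF4A2 are the paralogous genes for eIF4A, the RNA helicase that unwinds the 5' ends of mRNAs for the small ribosomal subunit. They were found by the identifiers of their full-length transcripts, which have 397 counted codons for EIF4A1 and 398 for EIF4A2, together with every other coding transcript row of the same genes. These are 2 of 18391 named genes, and 29 of 93627 coding rows, of which 20 belong to EIF4A1 and 9 to EIF4A2. The counts are of ribosome footprints, stretches of mRNA shielded by a ribosome during RNase I digestion, from 4 established human cancer cell lines. NCI-H1650 and NCI-H520 are lung cancer lines, and Hs 936.T and A375 are melanoma lines; all carry the label WT for genetic background. Cells received rocaglamide A (RocA) at 0.3 µM or at 3 µM, or its solvent DMSO, for 30 min. Each line gave 1 library at each RocA dose and 2 DMSO libraries, 16 in all, so that the lines served as replicates of a dose. Nothing in the labels says that the 2 DMSO libraries of a line came from separate cultures.

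eIF4A works as a subunit of eIF4F, beside the cap-binding protein eIF4E and the scaffold eIF4G. EIF4A1 is the more abundant form in most proliferating cells, and EIF4A2 encodes a closely similar protein. RocA, a plant flavagline, clamps eIF4A onto purine-rich RNA in place of letting it cycle, which takes the helicase out of use and leaves an obstacle on the mRNA. The protein of either paralog is thus the compound's own target, and footprints tell how heavily ribosomes occupied its mRNA, not how much protein was present. No RNA-seq was used here, so a change in mRNA amount and a change in ribosomes per mRNA cannot be told apart.

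Named-gene totals were 87700 to 1072121 counts in RocA libraries and 989755 to 5908971 in DMSO libraries. Every level below is scaled to its own library, so a change common to all genes was not measured. The 8 melanocyte genes checked summed to between 17220 and 28710 counts per 1e6 (CPM) in the Hs 936.T libraries. In NCI-H520, a lung line that should lack them, they summed to 132.5 and 312.2 with RocA, against 656.7 and 1584 with DMSO. The part of this in the EIF4A results was not tested. A375, a melanoma line, had 317.6 to 497 of these counts, and the lung line NCI-H1650 had 102 to 159.6. The 5 epithelial genes checked summed to 14100 to 17570 in NCI-H1650 and to 3118 to 3536 in NCI-H520. In the melanoma lines they summed to 292.5 to 410.2 in A375 and to at most 7.27 in Hs 936.T. The cell-line label of 2 NCI-H520 libraries, 1 at 3 µM RocA and 1 with DMSO, reads NCI-H521, and they were grouped by their titles.

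EIF4A2 lies on chromosome 3 and EIF4A1 on chromosome 17, both on the plus strand (GRCh38, GENCODE 29), and the coding sequences have 11 exons each. Their coding bases were 78.1% identical over 1212 aligned bases, and the longest run without a difference was 20 bases. Accordingly 0 of 1194 windows of 28 bases in EIF4A2, and 0 of 1191 in EIF4A1, occurred in the paralog, so that a footprint of that length separates the paralogs wherever it has no error. Windows of 28 bases were, however, shared with genes elsewhere in the annotation in 69.2% of cases for EIF4A1 and 32.2% for EIF4A2. Most lay in the processed pseudogenes EIF4A1P10 (615 windows) and EIF4A2P4 (282 windows). The sources used here do not say how reads with several matches were placed, so levels of the paralogs could be understated to different degrees. Within a paralog the shared part also varied along the gene: it was 21.5% of windows in the first 57 codons of EIF4A2 and 34.6% after them, and 60.4% and 70.0% in EIF4A1. A shift of footprints along the gene therefore changes which windows a count rests on, and the part of this in the results was not tested.

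The first 57 codons are shown because the footprints of both paralogs gathered there with RocA. They run over exons 1 to 3, spliced, from chr3:186783611-186784659 for EIF4A2 and chr17:7572842-7574644 for EIF4A1. Capitals mark runs of at least 6 purines (A or G), the kind of sequence to which RocA clamps eIF4A.

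EIF4A2: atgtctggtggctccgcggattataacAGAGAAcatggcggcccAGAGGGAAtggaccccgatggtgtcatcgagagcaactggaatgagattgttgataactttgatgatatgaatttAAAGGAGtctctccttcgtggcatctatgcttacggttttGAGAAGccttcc

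EIF4A1: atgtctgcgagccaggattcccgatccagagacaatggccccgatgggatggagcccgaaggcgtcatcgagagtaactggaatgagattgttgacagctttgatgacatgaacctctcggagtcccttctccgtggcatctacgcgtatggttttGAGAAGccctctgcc

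EIF4A2 held 4 such runs here, the longest of 8 bases, and EIF4A1 held 1, of 6 bases. Over 17990 genes the median longest run in the first 57 codons was 8 bases, and 54.4% of genes had a run as long as that of EIF4A2 and 88.1% one as long as that of EIF4A1. In the annotated 5' UTR of the main transcript the longest run had 6 bases in EIF4A2 and 5 in EIF4A1, where 78.8% and 89.7% of 16498 genes had one as long. These UTRs have only 64 bases in EIF4A2 and 16 in EIF4A1, and a short UTR leaves little room for a long run. The UTR of EIF4A1 was shorter than any among the genes compared, and length was not matched. The UTR shares therefore cannot rank either paralog. By the longest run in the first 57 codons, neither paralog stood out among all genes. The number of runs, 4 against 1, was not compared with other genes.

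Under DMSO the paralogs were ordered differently across the lines. EIF4A1 footprints were highest in A375, at 3355 ± 89.7 CPM (TMM-scaled, SD, n = 2). NCI-H520 had 1885 ± 28.5, Hs 936.T 1688 ± 0.41 and NCI-H1650 1089 ± 44.3 CPM. EIF4A2 footprints were highest in NCI-H520, at 464.2 ± 10.1 CPM, where NCI-H1650 had 134 ± 16.5, Hs 936.T 125.4 ± 2.99 and A375 99.9 ± 16.8 CPM. The line with the most EIF4A1 therefore had the least EIF4A2. The main rows differ by a single codon in counted length, but the share of windows found in other genes differs between the paralogs, so their levels are given side by side with that limit and without a test.

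For EIF4A1, A375 exceeded NCI-H520 by 0.85 ± 0.07 on the log2 scale (SE), Hs 936.T by 0.94 ± 0.07 and NCI-H1650 by 1.67 ± 0.07. NCI-H520 exceeded NCI-H1650 by 0.82 ± 0.07, and Hs 936.T exceeded it by 0.73 ± 0.07. All 5 were called at an adjusted p under 0.05 (edgeR quasi-likelihood test, Benjamini-Hochberg adjustment over 12190 genes). NCI-H520 and Hs 936.T, neighbours in the order, gave 0.09 ± 0.07 (adjusted p = 0.28 in the same edgeR test). For EIF4A2, NCI-H520 exceeded NCI-H1650 by 1.82 ± 0.12 and Hs 936.T by 1.82 ± 0.10, and A375 lay below NCI-H520 by -2.18 ± 0.10. Hs 936.T and NCI-H1650 gave 0.00 ± 0.12 (adjusted p = 0.99, edgeR). A375 lay below Hs 936.T by -0.36 ± 0.10 and below NCI-H1650 by -0.36 ± 0.12. Those last calls ended without A375 DMSO replicate 1, at -0.22 and -0.21, and the call against NCI-H1650 also ended without NCI-H1650 DMSO replicate 1, at -0.24. Such differences were common. Of all genes, 56.7% were called between A375 and NCI-H520, 64.3% between A375 and Hs 936.T, 63.8% between A375 and NCI-H1650, 59.2% between NCI-H520 and Hs 936.T, 59.0% between NCI-H520 and NCI-H1650 and 69.0% between Hs 936.T and NCI-H1650.

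**Figure D1:**
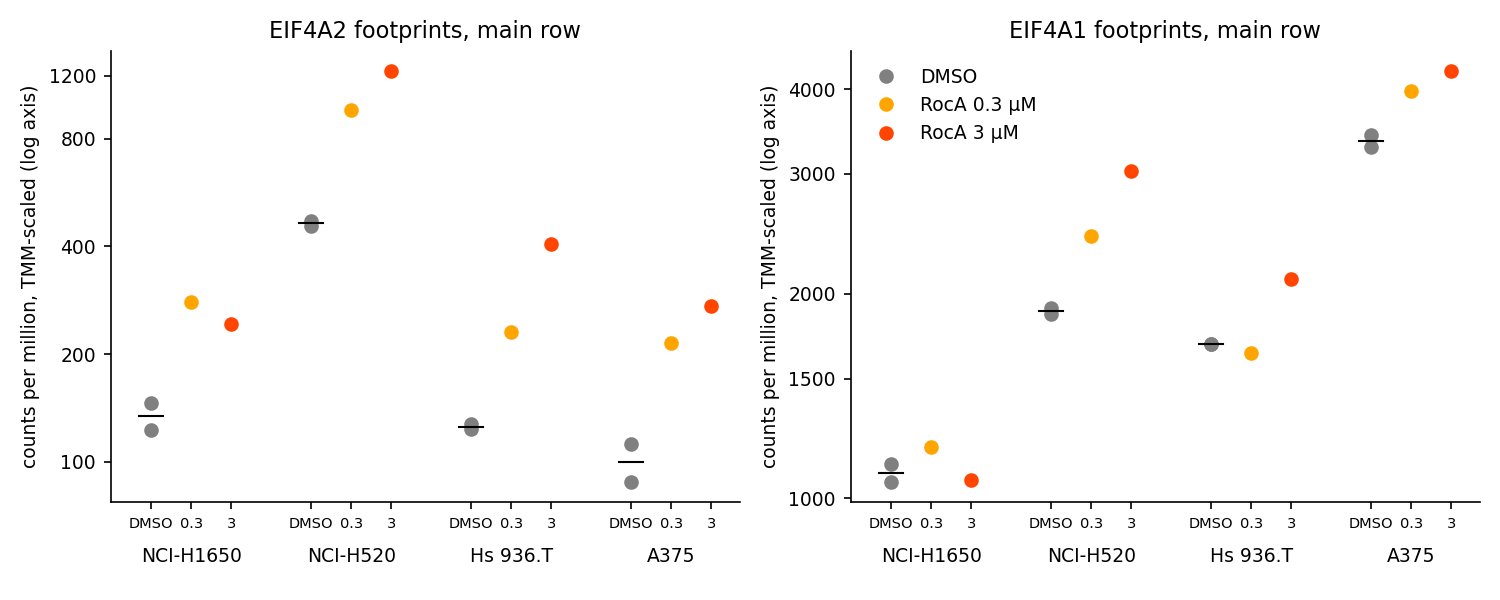
Footprints on the main rows of EIF4A2 (left) and EIF4A1 (right) in CPM on log axes, by cell line and dose in µM; each point is a library and the bar is the mean of the 2 DMSO libraries. EIF4A2 lay above the DMSO libraries of its line in all 8 treated libraries, whereas EIF4A1 did not in NCI-H1650 at 3 µM or in Hs 936.T at 0.3 µM.

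With RocA, EIF4A2 footprints rose in all 4 lines at both doses, whereas those on EIF4A1 stayed near the DMSO level at 0.3 µM and rose slightly at 3 µM. In NCI-H520, EIF4A2 had 457 and 471.3 CPM with DMSO, 960.3 CPM at 0.3 µM and 1236 CPM at 3 µM. In Hs 936.T it had 127.5 and 123.3 CPM with DMSO, 230 at 0.3 µM and 405.8 at 3 µM. In both lines each treated library stood above its DMSO libraries and the higher dose above the lower. A375 gave 88 and 111.8 CPM with DMSO, 214.8 at 0.3 µM and 273.3 at 3 µM. NCI-H1650 gave 145.7 and 122.3 CPM with DMSO, 280.5 at 0.3 µM and 242.4 at 3 µM. NCI-H1650 was the line in which the higher dose did not give the higher level, and its 3 µM value rests on 28 counts.

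EIF4A1 in NCI-H520 had 1865 and 1905 CPM with DMSO, 2427 at 0.3 µM and 3035 at 3 µM, the largest departure among the lines. In A375 it had 3419 and 3292 CPM with DMSO, 3976 at 0.3 µM and 4248 at 3 µM. Treated libraries of these 2 lines stood above their DMSO libraries. Hs 936.T gave 1688 CPM in each DMSO library, 1635 at 0.3 µM and 2098 at 3 µM. NCI-H1650 gave 1121 and 1058 CPM with DMSO, 1189 at 0.3 µM and 1065 at 3 µM, so that its 3 µM library lay between its DMSO libraries.

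Over the 4 lines the log2 fold change of EIF4A2 was 1.02 ± 0.11 (SE) at 0.3 µM (adjusted p = 4.9e-10) and 1.43 ± 0.11 at 3 µM (adjusted p = 1.2e-13, edgeR quasi-likelihood test over 9818 genes). That of EIF4A1 was 0.17 ± 0.11 at 0.3 µM (adjusted p = 0.17) and 0.35 ± 0.11 at 3 µM (adjusted p = 0.0053, same edgeR test). The EIF4A1 call at 3 µM ended without NCI-H520, at 0.27, or without its 3 µM library alone, at 0.24. Of all genes, 27.6% were called higher and 32.4% lower at 0.3 µM, and 25.1% higher and 32.1% lower at 3 µM, so that a call by itself was ordinary in these cells. The median log2 fold change of all genes was -0.09 at 0.3 µM and -0.16 at 3 µM; 87.9% and 95.7% of genes lay below EIF4A2 at these doses, and 60% and 68.2% below EIF4A1.

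Between the doses EIF4A2 was 0.42 ± 0.14 higher at 3 µM on the log2 scale, which was not called (adjusted p = 0.09, edgeR, where 3.29% of genes were called), and EIF4A1 0.18 ± 0.13 (adjusted p = 0.52). The EIF4A2 difference was called with other scalings, at 0.46 with DESeq2 size factors and 0.46 with upper quartiles, and at 0.53 without NCI-H1650. Neither response was shown to differ between the lines, with an F of 0.27 for EIF4A2 (adjusted p = 0.95) and 1.79 for EIF4A1 (adjusted p = 0.51, edgeR F-test, 2.90% of genes called).

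The ratio of EIF4A2 to EIF4A1 counts cancels the library total, and it also rose in every line. In NCI-H1650 it was 0.13 and 0.116 with DMSO, 0.236 at 0.3 µM (95% exact binomial interval 0.182 to 0.302) and 0.228 at 3 µM (0.145 to 0.345). In NCI-H520 it was 0.245 and 0.247 with DMSO, 0.396 at 0.3 µM (0.349 to 0.447) and 0.407 at 3 µM (0.366 to 0.452). No interval of these treated libraries overlapped that of a DMSO library of its line, except that of NCI-H1650 at 3 µM with DMSO replicate 1. In Hs 936.T the ratio was 0.0755 and 0.0731 with DMSO, 0.141 at 0.3 µM (0.122 to 0.162) and 0.193 at 3 µM (0.166 to 0.224). In A375 it was 0.0258 and 0.0340 with DMSO, 0.0540 at 0.3 µM (0.0447 to 0.0648) and 0.0643 at 3 µM (0.0539 to 0.0763). The intervals cover counting error only, and the 2 DMSO libraries of A375 lay further apart than their intervals.

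**Figure D2:**
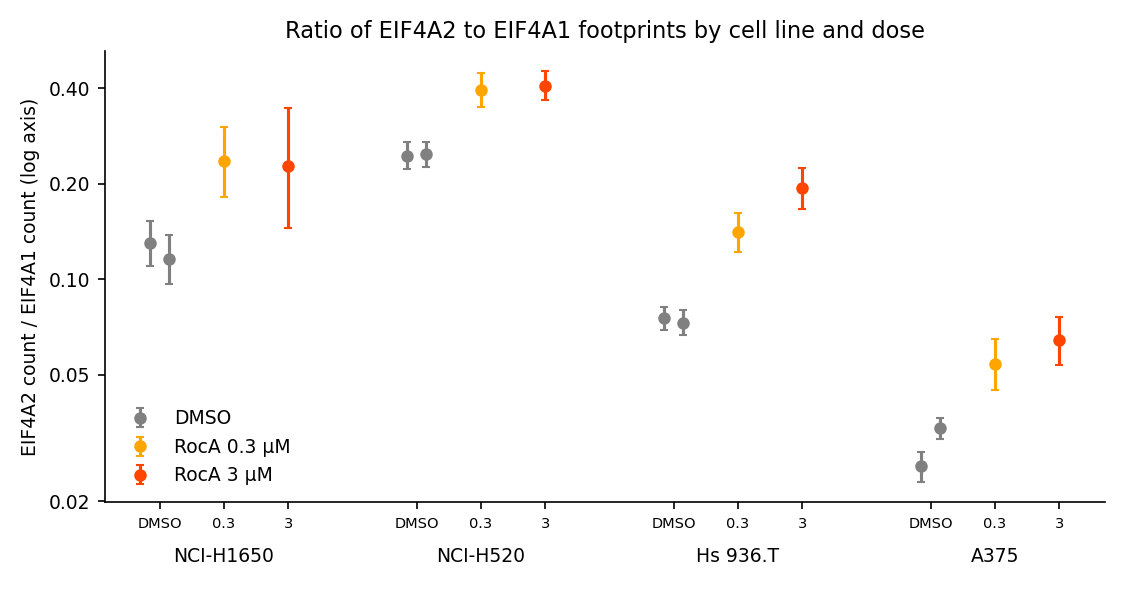
Ratio of EIF4A2 to EIF4A1 footprint counts on a log axis by cell line and dose in µM; each point is a library and the bars are 95% exact binomial intervals, which cover counting error only. In each line both treated libraries lie above both DMSO libraries, and the lines keep the order NCI-H520, NCI-H1650, Hs 936.T, A375 at every dose.

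On average over lines the log2 ratio was higher by 0.85 ± 0.12 (SD over lines, n = 4) at 0.3 µM, or 1.81-fold, and by 1.03 ± 0.28 at 3 µM, or 2.04-fold. Each was higher in 4 of 4 lines, with a 2-sided exact permutation p of 0.0123, which is the smallest that the 81 arrangements within lines allow, and an adjusted p of 0.0123 over 12 tests of this family. The ratio at 3 µM against 0.3 µM differed by 0.18 ± 0.23 (higher in 3 of 4 lines, exact sign-flip p = 0.375, where 4 lines cannot go below 0.125). Under DMSO the 4 lines differed in the ratio beyond the spread of their libraries (F = 139, exact permutation p = 0.0095, the smallest that 8 libraries allow). NCI-H520 averaged 0.246 ± 0.0016 (SD, n = 2), NCI-H1650 0.123 ± 0.010, Hs 936.T 0.0743 ± 0.0018 and A375 0.0298 ± 0.0058.

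The shorter transcript rows cover known stretches of each coding sequence, and their counts show where the footprints lay. Rows of a gene share reads and are not replicates of each other. RocA moved the footprints of both paralogs toward the start codon. The EIF4A2 row that ends at codon 57, whose sequence is given above, held 13.4% of the main row's count summed over the DMSO libraries, 34.8% at 0.3 µM and 47.7% at 3 µM. Its density, footprints per counted codon relative to the main row, was 1.14 with DMSO, 2.95 at 0.3 µM and 4.04 at 3 µM. The row ending at codon 98 held 23.6%, 44.8% and 55.5% in the same order, and the row from codon 18 to 127 held 27.0%, 30.5% and 33.4%. Since each row leaves 10 codons uncounted at unknown ends, the edges of a row hold only to within 10 codons.

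Library by library, the EIF4A2 row of codons 1 to 57 held at least 29.4% (Hs 936.T), with a median of 36.5%, and at most 41.9% (A375) at 0.3 µM, against 8.75% to 15.2% over the 8 DMSO libraries (median 13.6%). At 3 µM it held 44% to 57.1% with a median of 48%. The treated and DMSO libraries did not overlap at either dose. The share was higher by 23.2 ± 6.02 percentage points at 0.3 µM (SD over lines, n = 4) and by 36.5 ± 5.89 at 3 µM (both exact permutation p = 0.0123, adjusted p = 0.0123). From 0.3 to 3 µM it was higher by 13.2 ± 7.93 points, in 4 of 4 lines (exact sign-flip p = 0.125, the smallest possible).

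**Figure D3:**
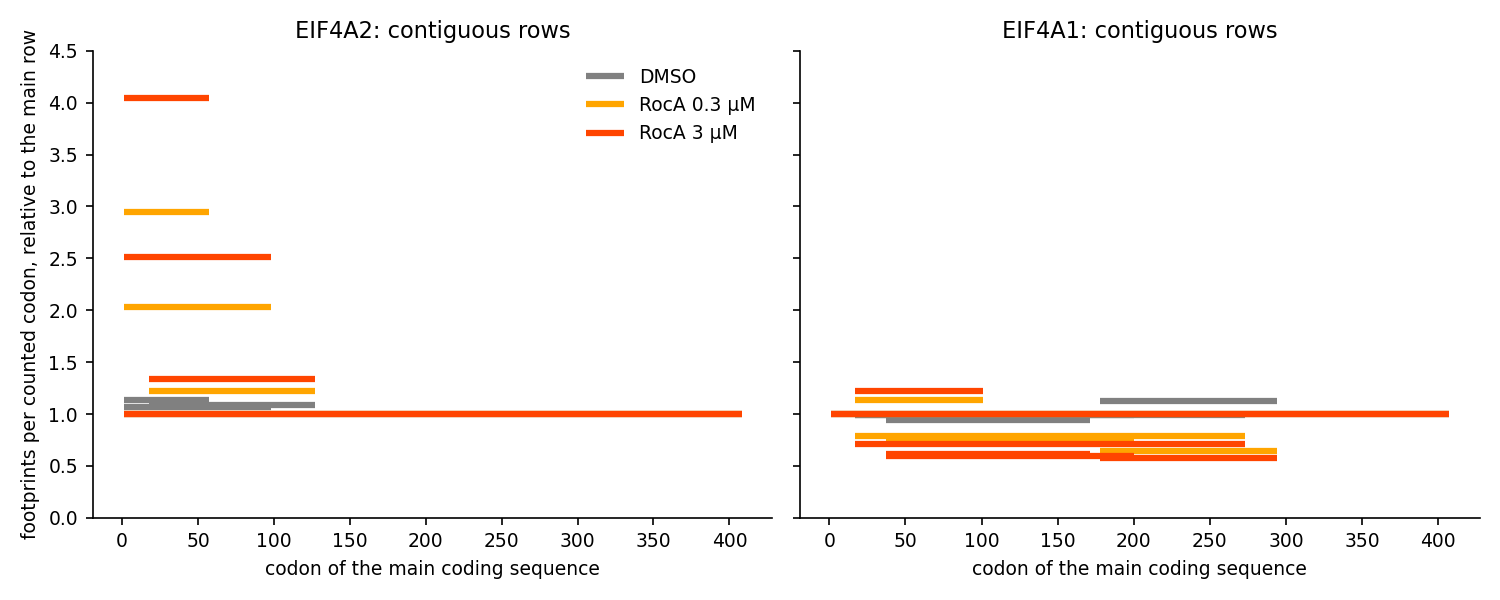
Footprints per counted codon relative to the main row (y axis) for each contiguous transcript row of EIF4A2 (left) and EIF4A1 (right), drawn as a line over the codons it covers (x axis), summed over DMSO, 0.3 µM and 3 µM libraries. EIF4A2 rows ending at codon 57 stand at 2.95 and 4.04 with RocA, and EIF4A1 rows that lack the first 36 codons stand below 1 with RocA.

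A matched pair of rows allowed the paralogs to be set side by side. In each gene a transcript marked for nonsense-mediated decay joins exons 1 to 3 (codons 1 to 70 of EIF4A2 and 1 to 69 of EIF4A1) to the first part of exon 5, with 87 and 86 counted codons. For EIF4A2 this row held 22.2% of the main count with DMSO, 42.4% at 0.3 µM and 57% at 3 µM. For EIF4A1 it held 15.4%, 43.9% and 53.4%. Footprints on these exons cannot be assigned to one transcript, so the counts describe the position along the gene and not use of the shorter transcript.

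In EIF4A1 the matched row held between 32.7% (Hs 936.T) and 51.3% (NCI-H1650) of the main count over the 0.3 µM libraries and between 51.6% and 57.8% over the 3 µM libraries, against 13.7% to 18.3% with DMSO. In EIF4A2 it held 34.9% to 47.6% at 0.3 µM and 54.6% to 71.4% at 3 µM, against 16.9% to 25% with DMSO. Neither paralog had a treated library within the DMSO range. The rise in share was 29 ± 8.56 points for EIF4A1 and 21.7 ± 5.43 for EIF4A2 at 0.3 µM, and 37.5 ± 2.88 and 39.6 ± 8.27 at 3 µM (SD over lines, n = 4, each exact permutation p = 0.0123). Hs 936.T had the smallest rise of the 4 lines at 0.3 µM in both paralogs, 16.4 points in EIF4A1 and 14 in EIF4A2, and no such gap at 3 µM.

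The downstream rows of EIF4A1 fell by comparison. The row from codon 17 to 273 held 61.5% of the main count with DMSO, 48.9% at 0.3 µM and 44.3% at 3 µM. It held 39.7% to 51.7% over the 0.3 µM libraries and 43.6% to 45.1% over the 3 µM libraries, against 59.2% to 61.9% with DMSO. The mean difference was -13.6 ± 4.47 points at 0.3 µM and -16.3 ± 1.52 at 3 µM, lower in 4 of 4 lines (exact permutation p = 0.0123 each). The row from codon 178 to 294 held 30.3%, 17.3% and 15.6% in order of dose. The row from codon 17 to 101, which begins at the same base as the longer row, held 18.8%, 21.5% and 23%, and did not share in the loss.

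A further row places part of the EIF4A2 signal more closely. The second-largest EIF4A2 row differs from the main row only by 3 bases at the start of exon 2, within codon 10, so that footprints across that junction alone tell the rows apart. The main row exceeded it by 32 counts of 3616 with DMSO (0.885%), by 76 of 781 at 0.3 µM (9.73%) and by 106 of 878 at 3 µM (12.1%). Over single libraries the excess was 2.53% to 15.3% at 0.3 µM and 3.57% to 14.7% at 3 µM, against -0.58% to 1.95% with DMSO. The NCI-H1650 values rest on 2 and 1 counts. At least this share of EIF4A2 footprints therefore crossed the first exon junction, and no treated library lay within the DMSO range.

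The gathering at the start was general. Over 354 genes with a row of 30 to 100 counted codons from the start codon, the median share was 25.8% at 0.3 µM and 30.4% at 3 µM, against 11.7% with DMSO. The share stood above both DMSO libraries in all 4 lines for 49.7% of these genes at 0.3 µM and 57.9% at 3 µM, and EIF4A2 was among them at each dose. The log2 change of the share of EIF4A2 was 1.47 at 0.3 µM, above that of 74.9% of the genes (median 0.96), and 1.92 at 3 µM, above that of 84.2% (median 1.26). Of 288 genes with a row that begins at codon 10 to 40, the share of that row lay below both DMSO libraries in all 4 lines for 43.8% at 0.3 µM and 50.3% at 3 µM. EIF4A1, through its row from codon 17 to 273, was among these at each dose, with log2 share changes of -0.37 and -0.45 (medians of the 288 genes -0.11 and -0.16). The shorter EIF4A2 row from codon 18 to 127 went the other way, with 0.23 and 0.22, above 90.3% and 87.9% of the genes. It covers other codons than that EIF4A1 row. The EIF4A1 row closest to it in place, from codon 17 to 101, rose in share too, from 18.8% with DMSO to 21.5% and 23%. These rows differ in length between genes.

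**Figure D4:**
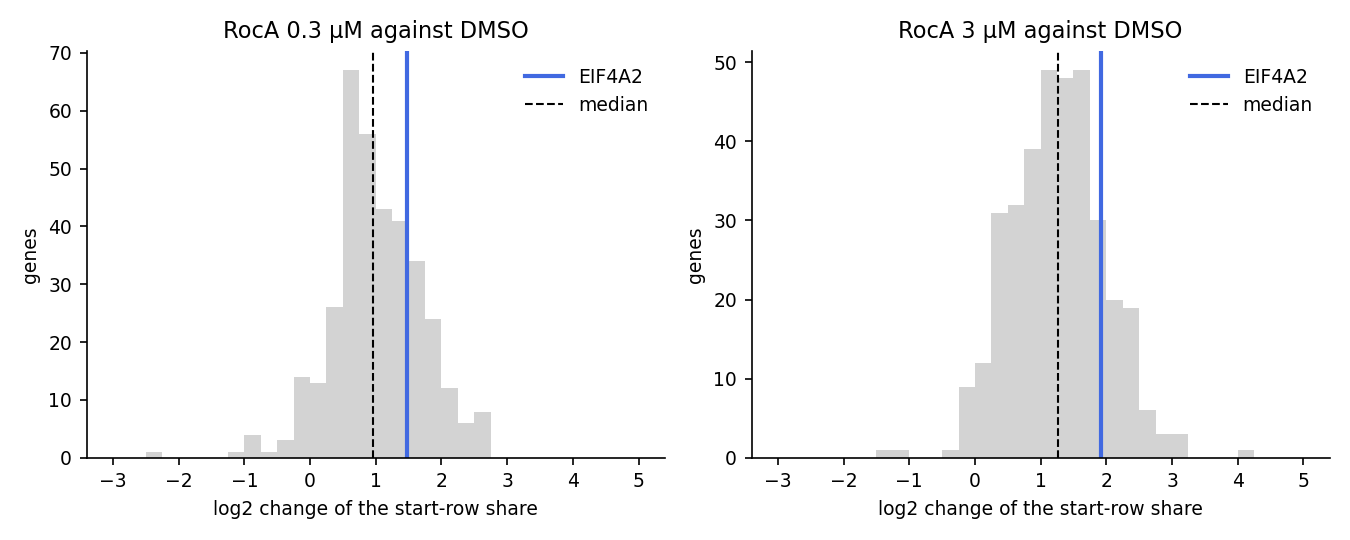
Log2 change of the share of a gene's footprints held by its start row (x axis) against the number of genes (y axis, 354 genes in all) at 0.3 µM (left) and 3 µM (right). EIF4A2, at 1.47 and 1.92, lies to the right of the medians of 0.96 and 1.26 and inside the range of the other genes.

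The choice of row therefore set the size of the RocA response, and for EIF4A1 its sign. On the matched rows of exons 1 to 3 and part of exon 5, EIF4A2 was higher by 1.97 ± 0.15 (log2, SE) at 0.3 µM and 2.86 ± 0.15 at 3 µM, and EIF4A1 by 1.67 ± 0.13 and 2.13 ± 0.13. On later codons, beyond codon 98 in EIF4A2 and from codon 178 to 294 in EIF4A1, EIF4A2 was still higher, by 0.51 ± 0.12 (adjusted p = 3.6e-04) and 0.64 ± 0.13 (adjusted p = 3.7e-05). EIF4A1 was lower there, by -0.59 ± 0.12 (adjusted p = 4.5e-05) and -0.53 ± 0.12 (adjusted p = 3.2e-04, all edgeR quasi-likelihood tests). On the inner rows, from codon 18 to 127 in EIF4A2 and from codon 17 to 273 in EIF4A1, EIF4A2 was higher by 1.23 ± 0.15 and 1.84 ± 0.15. EIF4A1 was not called there, at -0.19 ± 0.11 (adjusted p = 0.13) and -0.09 ± 0.11 (adjusted p = 0.50, edgeR). These stretches are not matched between the paralogs, and the other genes kept their main rows in these fits, so part of each difference from them reflects which codons were counted.

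**Figure D5:**
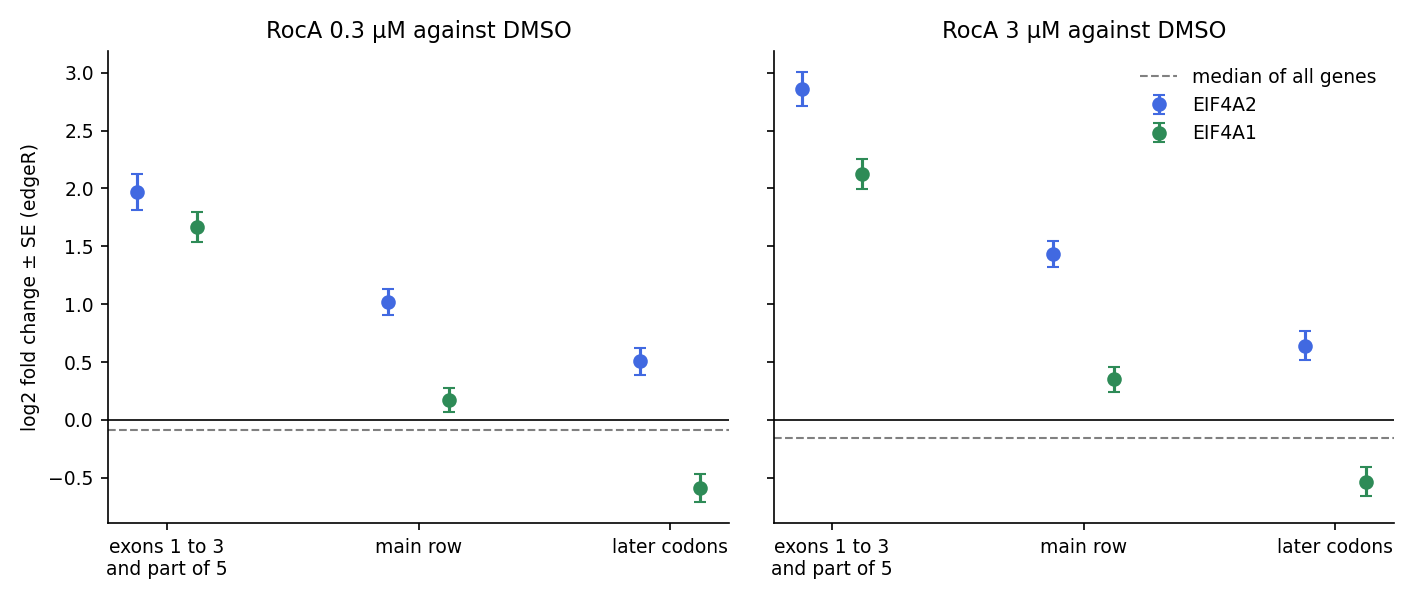
Log2 fold change with SE (y axis, edgeR, 4 lines) of EIF4A2 and EIF4A1 on 3 choices of row (x axis) at 0.3 µM (left) and 3 µM (right); the dashed line is the median of all genes on their main rows. EIF4A2 lies above 0 on each choice, and EIF4A1 lies between 1.67 and 2.13 at the start and at -0.59 and -0.53 on later codons.

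The ratio of the paralogs rose on the later codons as well, which leave out the start of the coding sequence but are not matched between the paralogs. Per codon, EIF4A2 to EIF4A1 on these stretches ranged from 0.0628 to 0.416 over the 0.3 µM libraries and from 0.0511 to 0.402 over the 3 µM libraries, against 0.022 to 0.238 with DMSO. Within lines the log2 ratio was higher by 1.08 ± 0.21 at 0.3 µM, or 2.12-fold, and by 1.09 ± 0.50 at 3 µM, or 2.13-fold (SD over lines, n = 4, higher in 4 of 4 lines, exact permutation p = 0.0123 each). The rise was 3.54-fold in Hs 936.T at 3 µM and 1.69-fold in NCI-H520. The NCI-H1650 value at 3 µM rests on 12 and 20 counts. The size of the rise also depends on the codons counted. On the EIF4A1 row used, density relative to the main row was 1.12 with DMSO, 0.64 at 0.3 µM and 0.58 at 3 µM. On a wider EIF4A1 row, within codons 118 to 369, it was 0.98, 0.63 and 0.56, a smaller fall. The ratio was not tested with that row.

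Among the partners of eIF4A more genes fell than rose. Of 21 genes for eIF4F subunits, eIF4A cofactors and inhibitors, cap-binding regulators, poly(A)-binding proteins and related helicases, 18 had enough counts to be tested. At 0.3 µM 2 rose and 8 fell, and at 3 µM 3 rose and 9 fell, with a median log2 fold change of -0.23 and -0.50. Over all genes tested, 27.6% were called higher and 32.4% lower at 0.3 µM, and 25.1% and 32.1% at 3 µM, with medians of -0.09 and -0.16.

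EIF4B, whose protein stimulates the helicase activity of eIF4A, rose at both doses, by 1.67 ± 0.10 and 1.73 ± 0.10 (log2, SE), where EIF4A2 gave 1.02 and 1.43. EIF4H, a related cofactor, gave -0.05 ± 0.11 and -0.09 ± 0.12 and was not called. Of the eIF4G scaffolds, EIF4G1 fell (-0.51 ± 0.12 and -0.73 ± 0.13), EIF4G2, which lacks the eIF4E-binding part, fell (-1.84 ± 0.14 and -2.09 ± 0.16), and EIF4G3 was not called (-0.23 and -0.03). The cap-binding EIF4E gave 0.14 ± 0.13 at 0.3 µM, not called, and rose by 0.64 ± 0.13 at 3 µM. EIF4E2, its homolog, rose at 0.3 µM (0.60 ± 0.16) and was not called at 3 µM (0.33 ± 0.18).

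PDCD4, a tumour suppressor that binds eIF4A and blocks it, fell at both doses (-2.17 ± 0.23 and -2.58 ± 0.29, log2). The poly(A)-binding proteins PABPC1 and PABPC4, which bridge the mRNA tail to eIF4G, fell too, PABPC1 with -2.57 ± 0.27 and -2.82 ± 0.31 and PABPC4 with -2.95 ± 0.20 and -2.37 ± 0.20. CNOT1, the scaffold of the deadenylase complex, fell (-1.91 ± 0.25 and -2.40 ± 0.30), as did DDX6, a helicase of repressed mRNAs (-2.31 ± 0.16 and -1.85 ± 0.17). These falls rest on small counts in some treated libraries. The lowest was 1 for PDCD4, in NCI-H520 at 0.3 µM. In NCI-H1650 there were 2 for PABPC4 and 3 for DDX6 at 3 µM, 4 for CNOT1 at both doses and 11 for PABPC1 at 0.3 µM. The helicase DDX3X, which the series title names as a further target of RocA, was not called over all libraries (0.35 ± 0.44 and -0.34 ± 0.47). Its A375 library at 0.3 µM stood apart, at 2183 CPM against 618.3 and 489.3 with DMSO, whereas the 0.3 µM libraries of the other lines, at 273.4 CPM in NCI-H1650, 352.1 in NCI-H520 and 278.6 in Hs 936.T, lay below both of their DMSO libraries. Without that library DDX3X gave -0.68 ± 0.15 at 0.3 µM (adjusted p = 1.5e-04) and -0.34 ± 0.13 at 3 µM (adjusted p = 0.023, edgeR), both called. DHX29 and DHX9 were not called. EIF4EBP1, the eIF4E-binding repressor, was not called at 0.3 µM (0.20 ± 0.14) and rose at 3 µM (0.37 ± 0.15). That call ended when any of 5 libraries was left out, at 0.34 without NCI-H520 DMSO replicate 2, 0.35 and 0.36 without A375 DMSO replicates 1 and 2, and 0.33 and 0.30 without the 3 µM libraries of NCI-H520 and Hs 936.T. At 0.3 µM EIF4EBP1 gave -0.05 without the A375 0.3 µM library. EIF4ENIF1, which carries eIF4E into the nucleus, fell at both doses, a call that ended at 3 µM without the A375 3 µM library (-1.04, adjusted p = 0.057, edgeR). Treated libraries held only 0 to 6 counts of EIF4ENIF1. PAIP1, a partner of PABPC1, was not called at 0.3 µM (-0.24 ± 0.16, or -0.44 and called without the A375 0.3 µM library) and fell at 3 µM (-0.66 ± 0.20).

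Among 3446 genes with at least 50 CPM on average, the levels most like those of EIF4A2 over the 16 libraries were MRPS7 (Pearson r 0.96), SMS, HTATIP2, PFN2 and COX4I1 (0.95 each). Those most like EIF4A1 were MTAP (0.97), FARSA and INCENP (0.94 each), EXOSC3 and SHMT2 (0.93 each). Over the changes in the 8 treated libraries, the genes nearest EIF4A2 were ARHGDIA and NASP (0.98 each), HAX1 (0.96), MRPL19 (0.95) and PSMD5 (0.94). Those nearest EIF4A1 were HSBP1 and DYNLL1 (0.99 each), TMA7, PFDN4 and STIP1 (0.98 each). The paralogs did not appear in each other's lists. These correlations share libraries, lines and depth, treated libraries of a line share their DMSO mean, and the nearest of so many genes are chosen for their r.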

How the data were processed

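Ribosome profiling libraries of 16 samples were used. Per the submitters' processing notes, CASAVA 1.8, Bowtie2 2.1.0 and TopHat2 2.0.9 were used with hg38. The deposited files hold the authors' raw footprint count for each of 182398 transcript entries, and the number of codons counted, without normalization. The counted codons are 10 fewer than the coding sequence, and the sources used here do not give which ends lose them, nor the annotation behind the identifiers. Entries were therefore named by aligning the order of their coding lengths with that of GENCODE 29 transcripts, which placed 90882 of 93627 coding entries (97.1%). Tested on simulated data, 90.2% of entries were placed, 0.126% of these at a wrong gene.

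For each gene the coding row with the most counts was used. That row is full length for both paralogs but was not required to be so for other genes. Genes with counts identical to another's (1470) were left out, which left 18391 genes. Replication-dependent histone genes and genes of chromosome Y were left out of the search for similar genes only. They were not removed from the tests across genes. Tests across genes used edgeR 4.0.16 under R 4.3.3 (robust quasi-likelihood test, TMM scaling, terms for line and dose, filterByExpr with a minimum count of 10) and limma 3.58.1, with DESeq2 1.42.0 as an alternative. Benjamini-Hochberg adjustment was over all genes tested, and an adjusted p under 0.05 was a call. For line differences under DMSO, the 8 DMSO libraries were fitted alone. Log2 changes by library used a prior count of 2. Shares and ratios were compared with 2-sided exact permutation tests within lines in SciPy 1.17.1 (Python 3.11.15, pandas 2.3.3, NumPy 2.4.6), and figures were drawn with matplotlib 3.10.9. The edgeR fit was checked on simulated counts. p-values measure the spread between lines and between DMSO libraries, which may be technical. Named genes were the 2 paralogs, a list of 21 partners and, for each paralog, the 5 genes with the highest Pearson r. The members and lists were chosen with earlier results of these data known. The comparisons of later, inner and start rows, and leaving out single libraries for the partners, were added after the counts were seen. Rows and scalings tried are given at the end.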

Additional observations from a re-analysis of the deposited data

How the results depend on the processing

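Of 788 recomputed values of 43 results, 763 were rated the same. For most this meant the same direction and the same side of the threshold. For counts of partner genes called it meant only a count near the main one. Leaving out lines gave 8 to 10 partner genes called lower at 0.3 µM, for example. Sign-flip comparisons of the 2 doses could not change side in any setting, since their smallest p is 0.125. The EIF4A2 difference between doses (0.42) became called with DESeq2 size factors (0.46), upper quartiles (0.46) and DESeq2 itself (0.46), on the row from codon 18 to 127 (0.61) and on the row of exons 1 to 3 and part of exon 5 (0.89); leaving out a library or line gave 0.26 to 0.53. The EIF4A1 change at 0.3 µM (0.17) became called with the second row of each gene (0.26) and with the row of exons 1 to 3 and part of exon 5 (1.67). It reversed on later codons (-0.59) and on the row from codon 17 to 273 (-0.19), as did that at 3 µM (-0.53 and -0.092); these rows count other codons by construction. Leaving out a library or line gave 0.24 to 0.44 for EIF4A1 at 3 µM. Other settings tried were thinning to equal depth, no count filter, and all coding entries in place of a single row per gene. The fit was also repeated without the 2 libraries labelled NCI-H521. In these settings both paralogs kept their direction and side of the threshold at each dose against DMSO. Under DMSO, EIF4A2 in Hs 936.T minus NCI-H1650 (0.00), never called, turned to -0.065 with DESeq2 size factors and with DESeq2, and ranged from -0.10 to 0.12 over left-out libraries, where replicate 2 of NCI-H1650 gave -0.10 and replicate 1 of Hs 936.T gave -0.02. EIF4A2 in A375 minus Hs 936.T ranged from -0.56 to -0.22 and in A375 minus NCI-H1650 from -0.55 to -0.21. The ratio on later codons between doses (0.01) ranged from -0.20 to 0.12 and was -0.20 without Hs 936.T or either of its treated libraries. The ratio of the main rows ranged from 0.80 to 0.91 at 0.3 µM and from 0.91 to 1.13 at 3 µM. The causes of these shifts, beyond the codons counted and the libraries left out, were not tested. Libraries with the same DMSO number did not deviate together between lines (correlations of deviations from -0.04 to 0.14), and with a replicate block no call changed (for example 1.82 for EIF4A2 in NCI-H520 minus Hs 936.T). For RocA a replicate block could not be fitted, since each line has 1 library per dose; those fits and permutations pair the libraries by line. Of the 2 paralogs, EIF4A2 was limited more by low counts, at 28 in NCI-H1650 at 3 µM. Several partner genes had fewer still, such as PDCD4 with 1 in NCI-H520 at 0.3 µM and EIF4ENIF1 with 0 in NCI-H1650 at 3 µM.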
